A study of Mus musculus with 22 samples.

Results

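The genes described here are 39 genes of cholesterol and fatty acid synthesis, of its control by sterol regulatory element binding proteins (SREBPs), and of the opposing export of cholesterol. They were taken by symbol from a named list, and all 39 are among the 24982 genes of each deposited count file. The list holds 18 enzymes of the mevalonate and sterol pathway, 6 regulators and carriers, 10 fatty acid enzymes, and 5 genes of cholesterol export and of the liver X receptors (LXRs), and 38 of the 39 passed the filter on low counts. Scd1, a stearoyl-CoA desaturase, did not: it had 0 counts in 21 libraries and 3 counts in stage IV isotype replicate 1. The 22 RNA-seq libraries came from eosinophils of maturation stages I, II, III and IV, sorted by flow cytometry from the bone marrow of wild-type C57BL/6 mice. Every mouse had received IL-33, a cytokine that drives eosinophil production, at 400 ng into the peritoneum each day for 7 days. From the last IL-33 dose on, mice were given 3 daily injections of 400 µg of either an antibody that neutralises IL-5, the main eosinophil growth factor, or a control antibody of the same isotype. There is no group without IL-33. Each antibody has 3 libraries at stages I, III and IV and 2 at stage II, all from one tissue. The labels do not say whether libraries came from separate animals, so p-values measure the spread between these samples, which may be technical.

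Cells make cholesterol from acetyl-CoA through mevalonate, isoprenoid diphosphates, squalene and lanosterol. When sterols are low in the endoplasmic reticulum, the escort protein SCAP carries SREBPs to the Golgi, where they are cut and released to switch on these enzymes; when sterols are high, INSIG proteins hold SCAP back. Oxidised sterols activate LXRs, which switch on cholesterol exporters such as Abca1 and Abcg1 and the ubiquitin ligase Mylip, which removes lipoprotein receptors from the cell surface. Dividing cells need new membrane lipid, and isoprenoids from the same pathway anchor small GTPases to membranes.

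Sequence upstream of the start sites is shown for 7 genes, chosen because they carry the results below: Hmgcs1, the 1 member with sterol regulatory element letters, Mvd, Lss, Msmo1, Insig1 and Acat2, which were lower under anti-IL5 at stage III, and Abca1, which was higher. Each line gives 250 bases that end at the base before the start site, 5′ to 3′ on the gene's strand, from RefSeq on GRCm38.p6. Capitals mark the sterol regulatory element letters TCACNCCAC and the NF-Y box letters CCAAT, each on either strand. In this order the stretches are chr13:119690101-119690350 (plus strand), chr8:122443423-122443672 (minus), chr10:76531355-76531604 (plus), chr8:64733579-64733828 (minus), chr5:28071162-28071411 (plus), chr17:12960726-12960975 (minus) and chr4:53159896-53160145 (minus).
Hmgcs1: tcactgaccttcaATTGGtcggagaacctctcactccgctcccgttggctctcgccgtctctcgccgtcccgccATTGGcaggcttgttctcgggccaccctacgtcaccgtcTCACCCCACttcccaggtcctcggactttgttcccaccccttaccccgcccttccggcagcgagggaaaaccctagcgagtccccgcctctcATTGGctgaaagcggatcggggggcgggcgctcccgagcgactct
Mvd: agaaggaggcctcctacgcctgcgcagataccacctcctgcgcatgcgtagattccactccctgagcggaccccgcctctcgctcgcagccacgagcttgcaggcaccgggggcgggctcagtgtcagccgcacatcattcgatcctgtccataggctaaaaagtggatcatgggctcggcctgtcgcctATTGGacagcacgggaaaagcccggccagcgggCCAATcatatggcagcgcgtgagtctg
Lss: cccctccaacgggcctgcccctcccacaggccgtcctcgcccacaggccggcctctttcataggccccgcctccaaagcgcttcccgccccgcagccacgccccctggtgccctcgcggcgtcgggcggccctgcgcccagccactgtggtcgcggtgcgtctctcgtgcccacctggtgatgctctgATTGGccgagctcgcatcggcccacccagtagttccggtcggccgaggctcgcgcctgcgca
Msmo1: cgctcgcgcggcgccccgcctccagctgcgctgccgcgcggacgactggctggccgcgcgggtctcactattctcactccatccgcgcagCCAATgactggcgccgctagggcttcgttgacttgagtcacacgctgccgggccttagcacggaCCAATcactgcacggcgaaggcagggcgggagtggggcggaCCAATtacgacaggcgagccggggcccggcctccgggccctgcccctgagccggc
Insig1: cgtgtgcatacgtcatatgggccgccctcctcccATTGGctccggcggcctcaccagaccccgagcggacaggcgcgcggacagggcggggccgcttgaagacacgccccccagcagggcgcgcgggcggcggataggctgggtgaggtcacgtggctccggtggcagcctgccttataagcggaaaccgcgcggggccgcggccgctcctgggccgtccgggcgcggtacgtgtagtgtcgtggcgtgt
Acat2: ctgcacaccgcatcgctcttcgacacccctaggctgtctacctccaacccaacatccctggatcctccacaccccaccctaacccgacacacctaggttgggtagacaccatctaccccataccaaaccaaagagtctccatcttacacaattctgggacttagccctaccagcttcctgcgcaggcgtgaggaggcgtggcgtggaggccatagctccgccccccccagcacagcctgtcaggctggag
Abca1: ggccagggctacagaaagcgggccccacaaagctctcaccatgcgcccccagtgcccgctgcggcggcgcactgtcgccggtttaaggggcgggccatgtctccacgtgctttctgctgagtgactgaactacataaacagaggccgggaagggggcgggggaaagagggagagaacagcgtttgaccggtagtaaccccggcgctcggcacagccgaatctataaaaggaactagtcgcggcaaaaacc

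In windows from 250 bases before to 50 after the start site, 31 of the 39 genes matched an entry by symbol. Fdps, Fdft1, Sqle, Stard4, Scd1, Scd2, Fads1 and Abcg1 did not. The NF-Y letters CCAAT, 5 bases searched on both strands, stood in 14 of 15 sterol enzyme promoters (93.3%), against 41.1% of the 27025 genes with a promoter entry and 43.4% of the 9792 of them tested here. The exception was Acat2, the cytosolic thiolase that opens the pathway. Among the other groups the letters stood in 4 of 5 regulators (80%), 4 of 7 fatty acid enzymes (57.1%) and 1 of 4 LXR and export genes (25%), which was Mylip. The sterol regulatory element letters TCACNCCAC stood in Hmgcs1 alone, with their first base at position -137 from its start site, against 1.44% of all genes with an entry. GC box letters GGGCGG stood in 14 of 15 sterol enzymes (93.3%), against 67.3% of the tested genes. The 3 motifs do not contain each other, though neighbouring matches can share end bases, and a gene with several start sites was counted once if any window held the letters. These matches describe letters in a window and are not evidence of binding.

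**Figure D1:**
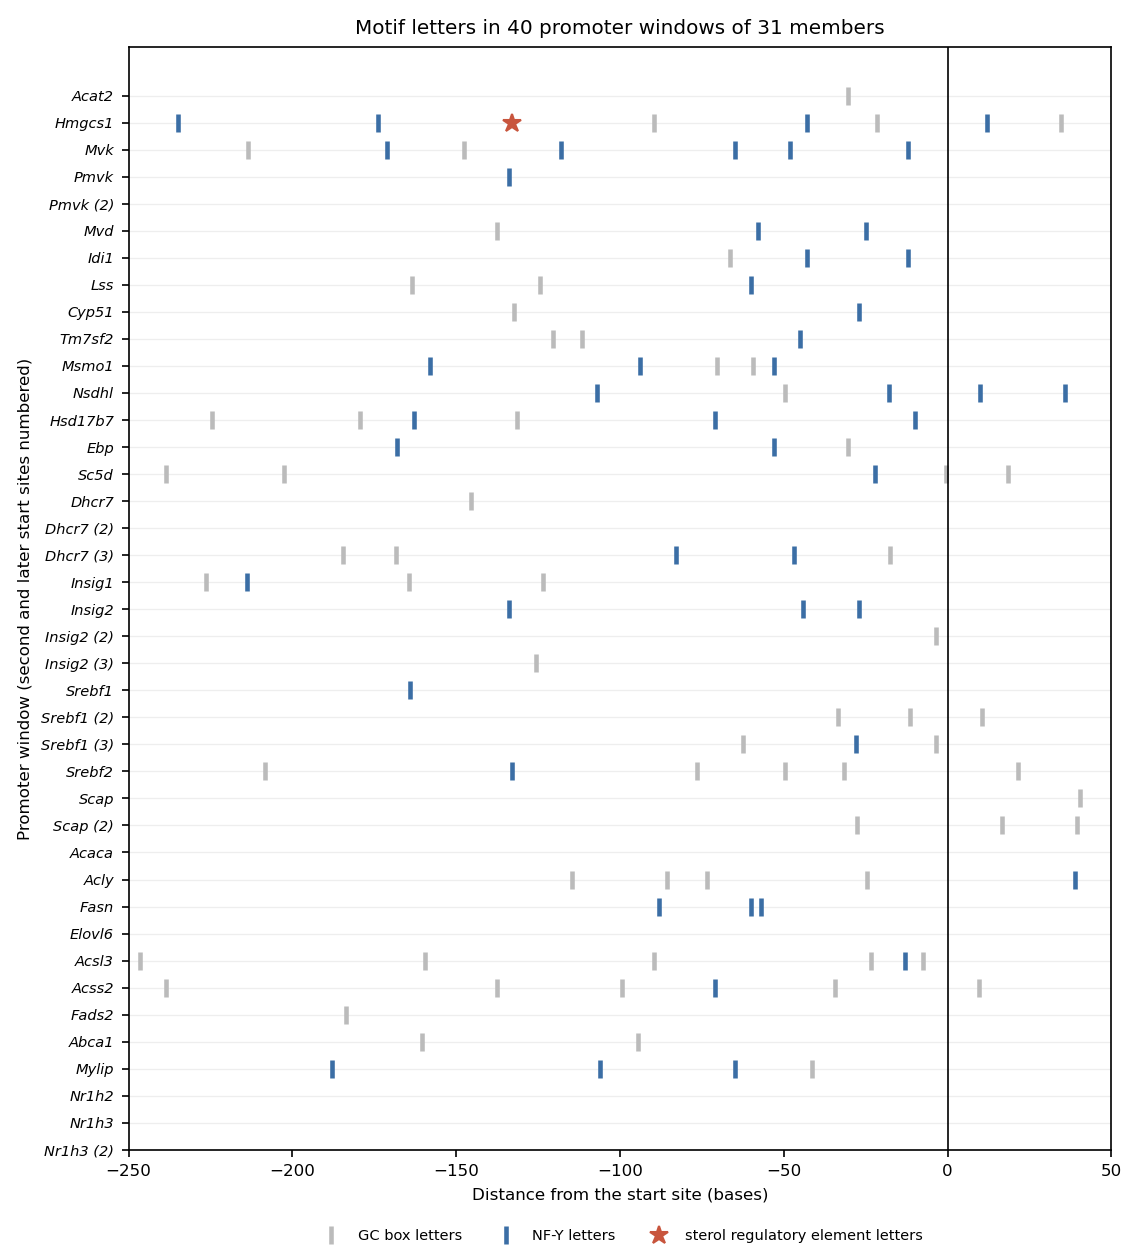
Position of motif letters in the 40 promoter windows of 31 genes, by distance in bases from the start site (vertical line at 0); blue ticks are CCAAT, grey ticks GGGCGG and the star TCACNCCAC. The blue ticks stand in 14 of the 15 sterol enzymes, and Acat2, Scap, Acaca, Elovl6, Fads2, Abca1, Nr1h2 and Nr1h3 have none.

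The libraries held 7161264 to 14781250 counts on genes, and 3 counts equal 0.222 to 0.411 CPM, that is, counts scaled to a common library total. All levels below are CPM on library sizes scaled by the trimmed mean of M-values (TMM), listed in the order of the replicate numbers, and compare 1 gene between samples, not genes with each other. A log2 value is a fold change ± standard error from 1 edgeR quasi-likelihood model of all 22 libraries and 12387 tested genes. A gene was called where its Benjamini-Hochberg adjusted p over all tested genes was under 0.05. Counts of called genes are given beside the percentage of all tested genes called in the same direction, here the background. Marker genes were checked against the label of the sorted cells. The 10 eosinophil genes examined summed to 43650 to 50780 CPM in stage I isotype libraries and 10740 to 12120 CPM at stage IV. The 9 neutrophil genes were also present, with 5027 to 6852 CPM in stage I isotype libraries. At stage IV under anti-IL5 they summed to 5507 to 6725 CPM beside 9167 to 10330 CPM for the eosinophil genes. Most of that stage IV neutrophil sum was Retnlg, with a mean of 4864 CPM there and 5.43 CPM in stage I isotype libraries. The next highest neutrophil gene in that stage IV group was Ngp, with a mean of 460 CPM. Of the basophil and mast cell genes, Cpa3 had means of 669 CPM in stage I isotype and 642.5 CPM in stage I anti-IL5 libraries. Genes of T, NK and innate lymphoid cells reached at most 1.78 CPM in any library, and the haemoglobin genes Hba-a1, Hbb-bs and Hbb-bt and the mast cell tryptase Tpsb2 were at 0 in all 22. In bulk RNA, fewer cells of a type and less RNA per cell cannot be told apart.

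Transcripts of most sterol enzymes were lowest at stage IV. With isotype antibody, 10 of the 18 sterol enzymes had their highest mean at stage III, 5 at stage I and 2 at stage II, and 15 had their lowest at stage IV. The stage of the highest mean moved with the scaling: with plain library totals 6 were highest at stage III, 7 at stage I and 4 at stage II, while 16 were lowest at stage IV. From stage III to IV, 22 of 38 members fell and 4 rose, against backgrounds of 18.8% lower and 14.8% higher. Their median was log2 -1.11, while the median of all tested genes was -0.0012. Of the sterol enzymes 15 of 18 fell, with a median of log2 -1.96. Over the whole course from stage I to IV, 23 members fell and 10 rose (backgrounds 33.9% and 32.3%). The earlier steps moved fewer members. From I to II 0 members passed in either direction by edgeR (backgrounds 3.25% lower and 7.39% higher), with 3 lower and 3 higher at an unadjusted p under 0.05. DESeq2 gave 3 lower (Scd2, Dhcr7 and Scap) and 0 higher. Without stage II isotype replicate 2 edgeR gave 3 lower and 2 higher, and without stage I isotype replicate 1 it gave 1 higher. From II to III, 2 fell and 11 rose (backgrounds 18.1% and 19%), with 1 lower without stage II isotype replicate 1 and 4 lower with plain library totals. The 16 genes of S phase and mitosis examined were all lower at both later steps, and summed to 5759 to 6134 CPM at stage II, 1752 to 2279 CPM at stage III and 215 to 239.8 CPM at stage IV of isotype libraries. The 7 basophil and mast cell genes summed to 952 to 1492 CPM at stage I and 23.5 to 32.0 CPM at stage IV, and the 10 eosinophil genes were lower in sum at stage IV, as given above. From stage I to IV with isotype 6 of these eosinophil genes fell and 4 rose, namely Ccr3, Siglecf, Il5ra and Alox15. The mean of Epx went from 22440 to 389 CPM and that of Ccr3 from 4.89 to 2719 CPM. From stage III to IV with isotype the neutrophil genes went from 6648 to 10120 to 3506 to 4445 CPM. Of these 3 fell and 1, Retnlg, rose. The macrophage genes went from 779 to 1180 to 202 to 352 CPM. Among them Vcam1 alone was called, lower, with means of 705 and 9.69 CPM, while the mean of Slc40a1 went from 182 to 252 CPM. The 4 megakaryocyte genes, their sum nearly all Itga2b, went from 687 to 873 to 145 to 164 CPM. From stage I to IV 8 of the 9 neutrophil genes fell and 1 rose. Their part in the member changes was not tested.

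**Figure D2:**
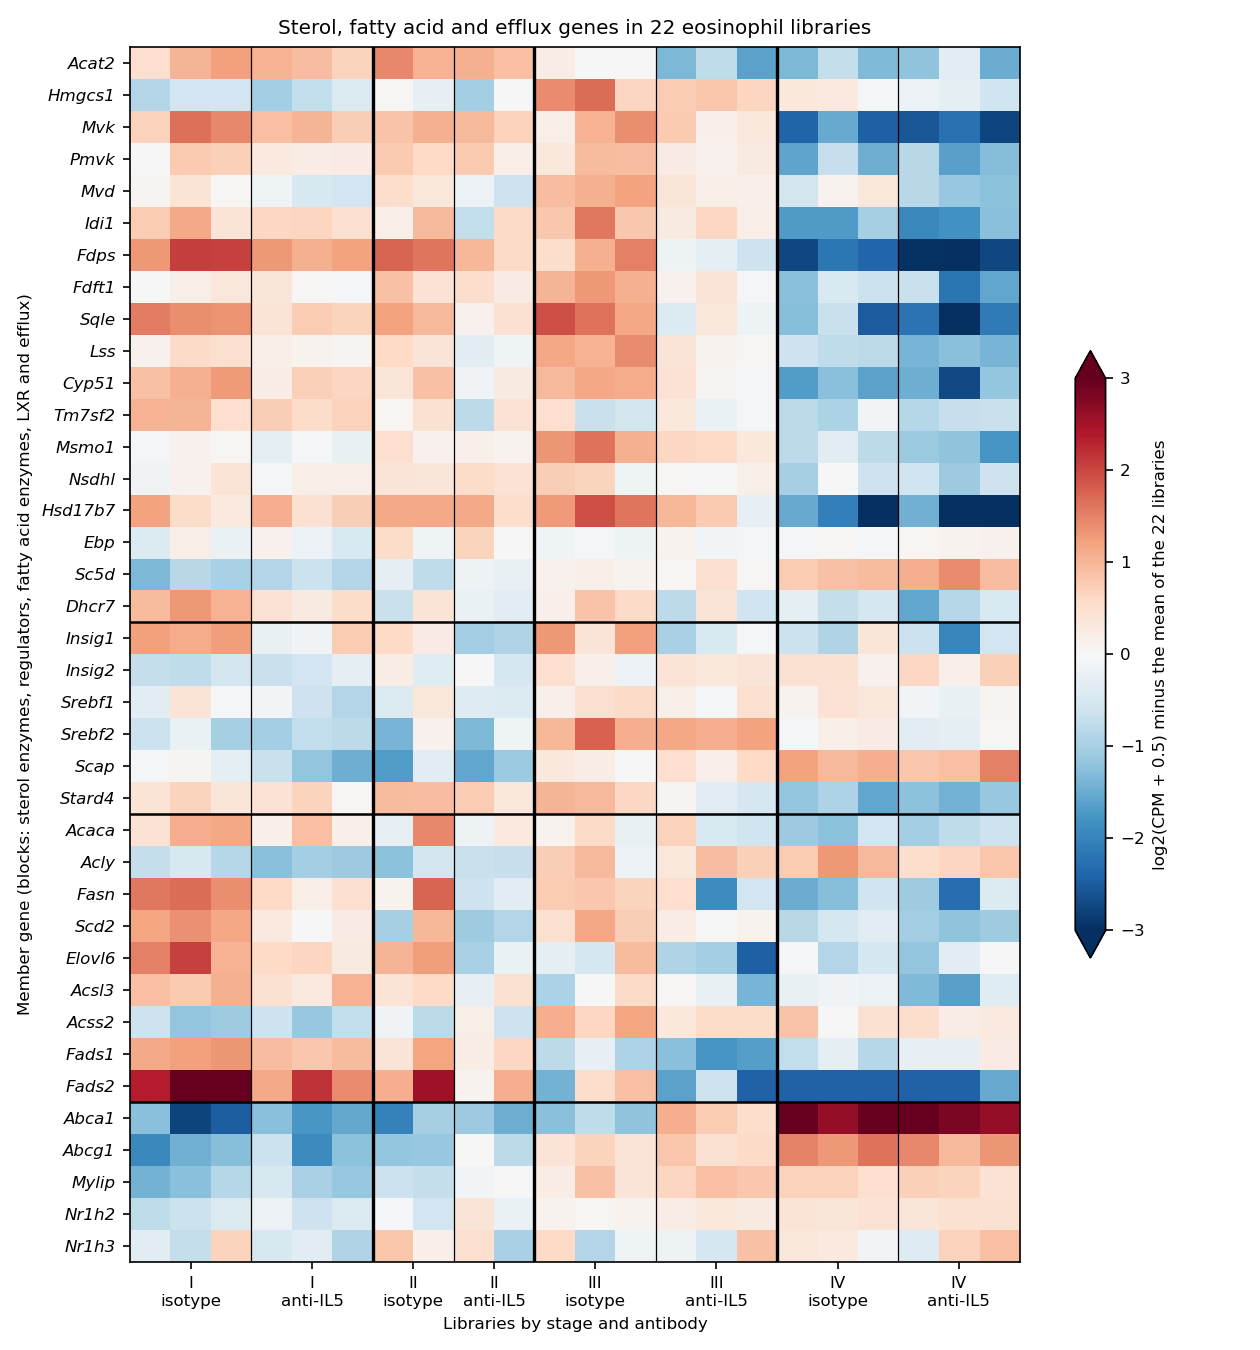
Level of the 38 tested genes in the 22 libraries, as log2(CPM + 0.5) minus the gene's mean over libraries (red above, blue below, colours limited at 3 either way); columns are libraries grouped by stage and antibody, rows are genes in blocks of sterol enzymes, regulators, fatty acid enzymes, and LXR and export genes. Most sterol enzymes are blue at stage IV, where 15 of 18 have their lowest isotype mean, while Sc5d, Abca1, Abcg1, Mylip and Nr1h2 are red there.

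Under anti-IL5 antibody the end of the course was the same in outline. From stage III to IV, 16 members fell and 3 rose (backgrounds 13.4% and 10.4%), and from stage I to IV 23 fell and 9 rose (backgrounds 32.8% and 30.7%). Of the 18 sterol enzymes, 7 had their highest mean at stage I, 6 at stage II and 4 at stage III, and 14 had their lowest at stage IV. With plain library totals 10 were highest at stage I, 4 at stage II and 3 at stage III, and 15 lowest at stage IV. From I to II 1 fell, Scd2, and 3 rose, Sc5d, Mylip and Nr1h2 (backgrounds 5.16% and 7.27%). The count of rises was 1 without stage I anti-IL5 replicate 2 and 0 without stage I replicate 3 or stage II replicate 1, and also 1 with plain library totals. Scd2 failed without stage I replicate 1 or 3 or either stage II replicate. From II to III 5 fell and 9 rose (backgrounds 19.7% and 19.8%). At that step the median over the 18 sterol enzymes was log2 -0.098 under anti-IL5 and 0.483 with isotype. The difference between these was not tested.

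The antibody comparison asks how neutralising IL-5 changed these genes at each stage. At stage III, 11 of 38 members were lower under anti-IL5 and 1 was higher, against backgrounds of 5.05% and 1.32%. The lower ones were the sterol enzymes Acat2, Mvd, Fdps, Fdft1, Sqle, Lss, Cyp51 and Msmo1, the regulators Insig1 and Stard4, and the desaturase Fads1, and the higher one was Abca1. DESeq2 called the same genes and also the low-level Elovl6 (log2 -2.14, DESeq2 adjusted p = 0.0232) and Fads2 (log2 -2.38, DESeq2 adjusted p = 0.0454), both lower. The median over the members was log2 -0.559, over the 18 sterol enzymes -0.823 and over all tested genes -0.0103. The count of lower members was 6 without isotype replicate 1, 6 without isotype replicate 3, 7 without anti-IL5 replicate 2 and 3 without anti-IL5 replicate 3. It was 8 without isotype replicate 2 and 9 without anti-IL5 replicate 1. Fdps, Lss, Stard4 and Abca1 passed in all 6 of these fits. Beside this, 10 of the 16 S phase and mitosis genes were lower at stage III, with sums of 1752 to 2279 CPM in isotype and 756 to 1113 CPM in anti-IL5 libraries. The 7 basophil and mast cell genes summed to 189 to 541 and 43.4 to 55.5 CPM, with Tpsb2 at 0 in both. The 8 macrophage genes summed to 779 to 1180 and 520.3 to 646 CPM, and the 10 eosinophil genes to 42600 to 49570 and 26610 to 31930 CPM. Of the macrophage genes Vcam1 alone was called, lower, with means of 705.1 and 312.8 CPM, while those of Slc40a1 were 182.3 and 227.2 CPM. Among the eosinophil genes Epx (means 13870 and 4698 CPM) and Prg3 (3799 and 1643 CPM) alone were called, both lower. The means of Ccr3 (443 and 784.8 CPM), Il5ra, Alox15 and Siglecf were higher with anti-IL5. The 9 neutrophil genes summed to 6648 to 10120 CPM in isotype and 9971 to 12170 CPM in anti-IL5 libraries. None of these 5 sums except the neutrophil one overlapped between the antibodies, and their part in the member changes was not tested. Of the tested marker genes of monocytes (6), erythroid cells (4), megakaryocytes (3), B lineage (4) and dendritic cells (4), 0 passed at stage III by edgeR or DESeq2, with 1 megakaryocyte gene lower and 1 dendritic cell gene higher at an unadjusted p under 0.05.

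At the other stages few members passed. At stage I, Scd2 and Scap were lower and 0 were higher by edgeR (backgrounds 1.82% and 2.61%), with 9 lower and 0 higher at an unadjusted p under 0.05 and 3 lower (Scd2, Scap and Fdps) and 0 higher by DESeq2. Without isotype replicate 2, anti-IL5 replicate 2 or anti-IL5 replicate 3 the count of lower members was 0, and without any other library of that stage it was 1. Without the filter on low counts it was 0 as well. Beside this, the marker genes Ccr3 and Alox15 (eosinophil), Retnlg (neutrophil), Csf1r (monocyte), Cd79a (B lineage) and Cdc20 (mitosis) were called higher and 0 marker genes were called lower at stage I by edgeR. The mean of Ccr3 was 4.89 CPM with isotype and 26.6 CPM with anti-IL5, that of Alox15 567 and 1779 CPM, and that of Retnlg 5.43 and 31.1 CPM, and their part in the member values was not tested. At stage II, with 2 libraries a group, 0 passed in either direction by edgeR (backgrounds 1.19% and 0.565%). There 7 were lower and 3 higher at an unadjusted p under 0.05, DESeq2 gave 2 lower (Lss and Scd2) and 0 higher, and without isotype replicate 1 edgeR gave 1 lower. At stage IV, Mvd alone was lower and 0 were higher (backgrounds 0.864% and 0.186%), with 8 lower and 0 higher at an unadjusted p under 0.05 and 2 lower (Mvd and Msmo1) and 0 higher by DESeq2. The median over members was log2 -0.292 at stage I, -0.334 at stage II and -0.202 at stage IV, and that over all tested genes lay between -0.0034 and 0.0201. At stage IV the macrophage genes summed to 202 to 352 CPM with isotype and 405 to 539.7 CPM with anti-IL5. Of these 0 were called, and Slc40a1 made most of the sum, with means of 252 and 438 CPM. The neutrophil genes summed to 3506 to 4445 CPM with isotype and 5507 to 6725 CPM with anti-IL5. Among them S100a9 and Ngp were called higher, while Retnlg made most of the sum, with means of 3539 and 4864 CPM. The eosinophil genes summed to 10740 to 12120 CPM with isotype and 9167 to 10330 CPM with anti-IL5, where Epx, Ear6 and Prg2 were called lower, and the megakaryocyte genes to 145 to 164 CPM with isotype and 95.2 to 136 CPM with anti-IL5. None of these 4 sums overlapped between the antibodies, and their part in the stage IV values was not tested.

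Averaged over the 4 stages, each weighted equally, 14 members were lower under anti-IL5 and 2 higher (backgrounds 10.3% and 8.6%). In the same comparison 8 of the 16 S phase and mitosis genes were lower and 1 higher, 4 of 10 eosinophil genes lower and 2 higher, 2 of 5 tested basophil and mast cell genes lower and 4 of 9 neutrophil genes higher, and their part in the member values was not tested. Fdps, Mvd, Lss, Scd2, Insig1, Sqle, Msmo1, Cyp51, Elovl6 and Stard4 passed without any 1 of the 22 libraries, and their values stand with each gene below. Whether the effect differed between stages was tested for each gene. The effect at stage III minus that at stage I passed for 0 members in either direction by edgeR (backgrounds 0.363% and 0.0323%), with 6 lower and 2 higher at an unadjusted p under 0.05 and 1 lower (Stard4) and 1 higher (Scap) by DESeq2. The effect at stage III minus that at stage IV also passed for 0 (backgrounds 0.541% and 0.0969%), with 6 lower and 1 higher at an unadjusted p under 0.05 and 3 lower (Acat2, Stard4 and Fads1) and 1 higher (Abca1) by DESeq2. So a larger effect at stage III was not shown by edgeR for any member.

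**Figure D3:**
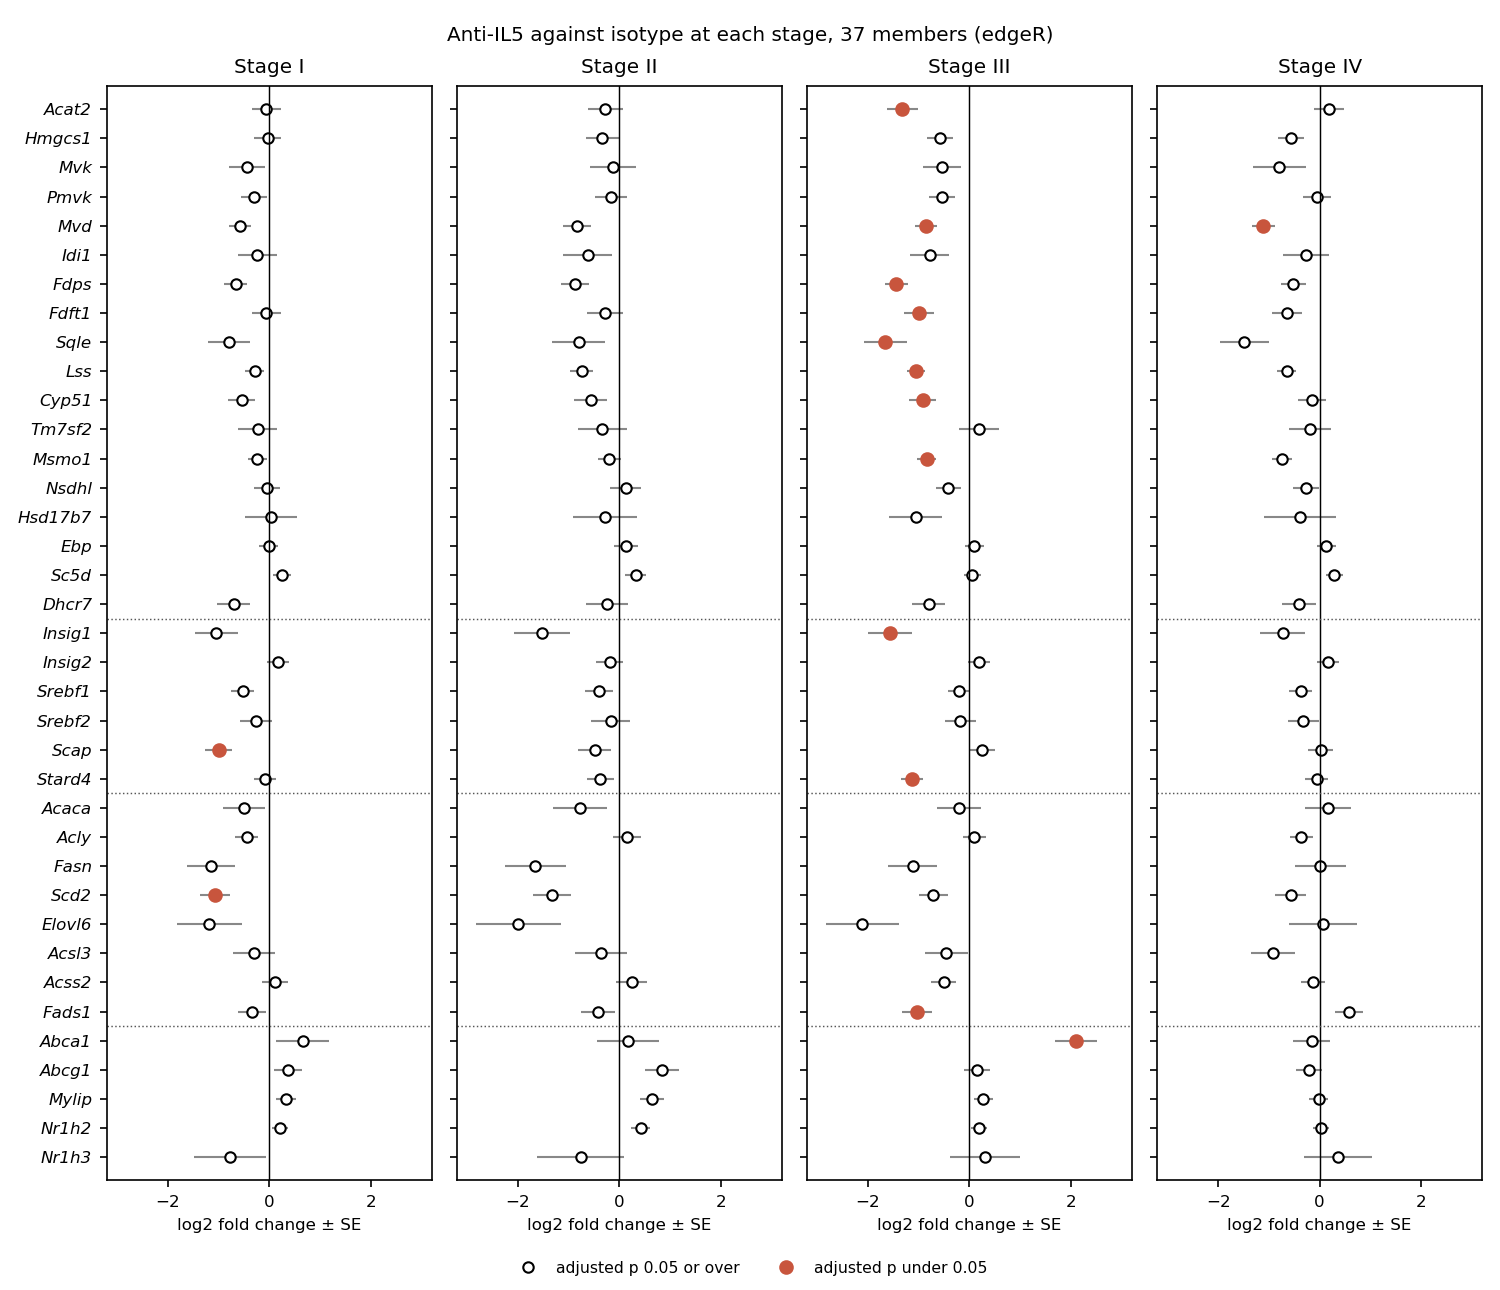
Log2 fold change ± standard error of anti-IL5 against isotype at each stage for 37 genes, in the blocks of the heat map separated by dotted lines; filled points passed an edgeR adjusted p of 0.05. Fads2 is left out because its stage IV isotype libraries hold 0 counts. Filled points are most frequent at stage III, with 12 there, 2 at stage I, 0 at stage II and 1 at stage IV.

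Among the early enzymes, which turn acetyl-CoA into mevalonate and then into isoprenoid diphosphates, Fdps fell from stage III to IV with both antibodies. Fdps (chr3:89093588-89101959 on mm10) makes farnesyl diphosphate, the branch point to sterols and to protein prenylation. Its isotype levels were 196, 338 and 333 CPM at stage I, 266 and 242 at stage II, 115, 167 and 229 at stage III and 11.6, 17.4 and 14.9 at stage IV. The anti-IL5 levels were 197, 168 and 184 CPM at stage I, 158 and 119 at stage II, 71.6, 65.1 and 51.8 at stage III and 9.78, 9.25 and 11.6 at stage IV. Every stage IV library was far below every library of stages I to III, and at stages II and III every anti-IL5 library was below every isotype library. The fall from stage III to IV was log2 -3.54 ± 0.25, edgeR adjusted p = 7.85e-10 with isotype and log2 -2.62 ± 0.25, edgeR adjusted p = 9.09e-08 with anti-IL5. From stage II to III Fdps was also lower, by log2 -1.22 with anti-IL5 (DESeq2 adjusted p = 3.19e-05). With isotype that step was log2 -0.62 (DESeq2 adjusted p = 0.0472) and did not pass by edgeR. The antibody difference was log2 -1.44 ± 0.23, edgeR adjusted p = 0.000596 at stage III and log2 -0.87 ± 0.12, edgeR adjusted p = 4.29e-05 over the stages. At stage I it was log2 -0.66 ± 0.22, edgeR adjusted p = 0.0979, and replicate 1 of the isotype libraries lay below the highest anti-IL5 library.

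Mvd, which decarboxylates mevalonate diphosphate to isopentenyl diphosphate, was the 1 member called at both stage III and stage IV. Its levels were 42.5, 47.2 and 52.0 CPM in isotype and 28.5, 25.1 and 24.5 CPM in anti-IL5 libraries at stage III. At stage IV they were 15.1, 24.0 and 28.0 CPM with isotype and 12.2, 9.79 and 9.17 CPM with anti-IL5. The antibodies did not overlap at either stage, nor at the earlier ones. At stage I the levels were 23.4, 29.5 and 22.6 CPM with isotype and 20.2, 15.7 and 14.7 CPM with anti-IL5, and at stage II 31.9 and 28.1 CPM with isotype and 19.5 and 14.2 CPM with anti-IL5. The difference was log2 -0.86 ± 0.22, edgeR adjusted p = 0.0215 at stage III, log2 -1.11 ± 0.23, edgeR adjusted p = 0.0135 at stage IV and log2 -0.84 ± 0.12, edgeR adjusted p = 4.73e-05 over the stages. The stage III call was lost without isotype replicate 3, anti-IL5 replicate 2 or anti-IL5 replicate 3 (highest edgeR adjusted p = 0.0986). The stage IV call was lost without replicate 2 or 3 of either antibody (highest edgeR adjusted p = 0.0894). Mvd was also higher at stage III than II with isotype (log2 0.66 ± 0.25, edgeR adjusted p = 0.0435), a call lost under most alternatives, among them DESeq2-type scaling factors in edgeR, plain library totals and no filter, and also without either stage II library or stage III replicate 2 or 3 (highest edgeR adjusted p = 0.193).

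Acat2 (chr17:12942890-12960747), the cytosolic thiolase that joins acetyl-CoA units, fell already from stage II to III, as the desaturase Fads1 did and, under anti-IL5, Fdps. Isotype libraries had 54.1 and 40.9 CPM at stage II, 22.7, 19.7 and 19.5 at stage III and 7.40, 11.7 and 7.49 at stage IV. Anti-IL5 libraries had 41.4 and 36.96 CPM at stage II, 7.36, 11.3 and 6.06 at stage III and 8.23, 15.3 and 6.65 at stage IV. The stage III anti-IL5 libraries thus lay below the stage III isotype libraries and overlapped the stage IV libraries. The drop from II to III was log2 -2.25 ± 0.32, edgeR adjusted p = 1.05e-05 with anti-IL5 and log2 -1.20 ± 0.31, edgeR adjusted p = 0.00447 with isotype, the latter lost without stage II isotype replicate 1 (edgeR adjusted p = 0.0634). At stage III the antibody difference was log2 -1.32 ± 0.30, edgeR adjusted p = 0.00918, lost without anti-IL5 replicate 3 (edgeR adjusted p = 0.0702), and at stage IV it was log2 0.18 ± 0.30, edgeR adjusted p = 0.955.

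Hmgcs1, which makes the precursor of mevalonate, ran the other way over the early stages. It went from 13.2, 16.4 and 16.5 CPM at stage I to 25.5 and 20.7 at stage II, 67.7, 80.7 and 39.2 at stage III and 31.1, 30.7 and 24.0 at stage IV with isotype. It rose from II to III (log2 1.44 ± 0.30, edgeR adjusted p = 0.000806) and fell from III to IV (log2 -1.13 ± 0.26, edgeR adjusted p = 0.00176), ending above stage I (log2 0.90 ± 0.26, edgeR adjusted p = 0.00481). The last of these calls was lost with plain library totals, where the edgeR adjusted p was 0.109. Anti-IL5 libraries followed the same order of stages, at 42.7, 44.6 and 38.9 CPM at stage III, which overlapped isotype replicate 3 (log2 -0.57 ± 0.26, edgeR adjusted p = 0.192). With anti-IL5, Hmgcs1 was not called between stages I and IV, with means of 15.0 and 19.4 CPM. Over the stages Hmgcs1 was lower under anti-IL5 by DESeq2 (log2 -0.37, DESeq2 adjusted p = 0.0471) and did not pass by edgeR. The kinases Mvk and Pmvk and the isomerase Idi1 fell from stage III to IV with both antibodies. Mvk, for example, had 6.11, 11.4 and 14.5 CPM at stage III and 0.596, 1.51 and 0.562 at stage IV with isotype (log2 -3.54 ± 0.43, edgeR adjusted p = 1.37e-06). Their antibody differences passed at none of the 4 stages, with values from log2 -0.79 (Mvk at stage IV) to -0.045 (Pmvk at stage IV), nor did any of them pass by DESeq2.

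On the route from farnesyl diphosphate to sterols, Fdft1, Sqle, Lss, Cyp51 and Msmo1 were lower under anti-IL5 at stage III. Sqle (chr15:59315077-59331192), squalene epoxidase and a rate-controlling step, had 87.1, 69.98 and 51.1 CPM in stage III isotype and 16.8, 28.8 and 20.2 CPM in stage III anti-IL5 libraries. At stage I the levels were 65.5, 59.3 and 57.5 CPM with isotype and 29.7, 38.6 and 36.1 CPM with anti-IL5, and at stage II 52.8 and 44.6 CPM with isotype and 24.6 and 31.1 CPM with anti-IL5. At each of these stages all anti-IL5 libraries were below all isotype libraries, while at stage IV they overlapped (8.93, 13.9 and 3.56 CPM with isotype and 4.41, 0.445 and 4.76 CPM with anti-IL5). The difference was log2 -1.66 ± 0.42, edgeR adjusted p = 0.0215 at stage III and log2 -1.19 ± 0.23, edgeR adjusted p = 0.00107 over the stages. The stage III call was lost without isotype replicate 1, anti-IL5 replicate 1 or anti-IL5 replicate 3 (highest edgeR adjusted p = 0.0956) and with no filter on low counts (edgeR adjusted p = 0.0588).

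Lss, which closes the ring to lanosterol, had the smallest standard error of the 12 members called at stage III. It had 46.8, 42.7 and 55.7 CPM with isotype and 27.0, 22.02 and 21.2 CPM with anti-IL5 at stage III (log2 -1.05 ± 0.18, edgeR adjusted p = 0.00133). At stage IV the levels were 13.2, 11.97 and 11.4 CPM with isotype and 7.51, 8.36 and 7.46 CPM with anti-IL5, again without overlap but short of the threshold (log2 -0.65 ± 0.19, edgeR adjusted p = 0.134). Over the stages the difference was log2 -0.68 ± 0.097, edgeR adjusted p = 5.59e-05. With isotype Lss rose from stage II to III (log2 0.73 ± 0.20, edgeR adjusted p = 0.00803), a call lost without stage II isotype replicate 2 (edgeR adjusted p = 0.0811). It then fell to stage IV (log2 -1.99 ± 0.19, edgeR adjusted p = 3.85e-08).

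Msmo1, a methyl sterol oxidase, had its highest mean at stage III. Its isotype levels were 61.7 and 47.5 CPM at stage II, 109.7, 135 and 92.2 at stage III and 24.8, 34.5 and 25.0 at stage IV. The anti-IL5 levels were 48.4 and 46.8 CPM at stage II, 67.4, 66.3 and 54.1 at stage III and 19.7, 18.4 and 12.5 at stage IV. Both antibodies had their highest mean at stage III, where the anti-IL5 mean was the lower one. The step from II to III was log2 1.04 ± 0.22, edgeR adjusted p = 0.000746 with isotype and log2 0.40 ± 0.21, edgeR adjusted p = 0.147 with anti-IL5. The difference between these steps was not tested. The antibody difference was log2 -0.84 ± 0.19, edgeR adjusted p = 0.00878 at stage III, lost without anti-IL5 replicate 3 (edgeR adjusted p = 0.0668), log2 -0.74 ± 0.20, edgeR adjusted p = 0.0726 at stage IV and log2 -0.50 ± 0.10, edgeR adjusted p = 0.00134 over the stages.

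Fdft1 (chr14:63145150-63179578), squalene synthase, and Cyp51 (chr5:4081145-4104746), lanosterol demethylase, differed less firmly. Fdft1 had 40.5, 49.5 and 41.9 CPM in stage III isotype and 21.4, 25.9 and 19.1 CPM in stage III anti-IL5 libraries (log2 -0.99 ± 0.29, edgeR adjusted p = 0.043). Cyp51 had 92.9, 106 and 103 CPM with isotype and 63.8, 49.7 and 46.0 CPM with anti-IL5 (log2 -0.92 ± 0.26, edgeR adjusted p = 0.0391). Neither gene overlapped between the antibodies at stage III, yet the Fdft1 call was lost without any 1 of the 6 libraries (highest edgeR adjusted p = 0.175). The Cyp51 call was lost without any 1 of the 6 but anti-IL5 replicate 1 (highest edgeR adjusted p = 0.166). Over the stages the differences were log2 -0.50 ± 0.15, edgeR adjusted p = 0.0279 and log2 -0.54 ± 0.14, edgeR adjusted p = 0.00947. The Fdft1 value over stages was lost without stage II isotype replicate 1, stage IV isotype replicate 2 or stage II anti-IL5 replicate 2 (highest edgeR adjusted p = 0.0767). Exons of Fdft1 overlap those of Ctsb, and exons of Cyp51 those of Akap9, on the other strand, and these libraries do not mark strand. Exons of Fdps overlap those of Gm43738, exons of Tm7sf2 those of Vps51, and exons of Acsl3 those of Utp14b, on the same strand. Among further overlaps on the other strand were Scap with 5830462I19Rik, Hmgcs1 with Gm48342, Lss with 4930483K19Rik and Idi1 with Gm48574. How the counting treated reads in any of these overlaps is not given in the sources used here.

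The late enzymes, which remodel lanosterol into cholesterol, did not move together. Hsd17b7, a ketosteroid reductase, fell from 15.3, 24.4 and 19.2 CPM at stage III to 1.79, 1.06 and 0.0937 at stage IV with isotype (log2 -4.29 ± 0.62, edgeR adjusted p = 1.34e-05). Sc5d, a sterol desaturase, had a higher mean at each later stage: isotype libraries had 38.97, 56.1 and 50.8 CPM at stage I, 81.7 and 58.9 at stage II, 109, 114 and 109 at stage III and 171, 185 and 194 at stage IV. Its change from stage I to IV was log2 1.92 ± 0.17, edgeR adjusted p = 2.85e-09 with isotype and log2 1.96 ± 0.17, edgeR adjusted p = 2.72e-09 with anti-IL5, and it was the 1 sterol enzyme higher at stage IV than III (log2 0.73 ± 0.17, edgeR adjusted p = 0.0018 with isotype). Ebp, a sterol isomerase, ranged from 64.9 to 140.5 CPM over all 22 libraries and passed none of the 15 comparisons. Dhcr7, which carries out the last reduction, had 28.8, 36.9 and 30.8 CPM in stage I isotype and 19.9, 17.7 and 21.8 CPM in stage I anti-IL5 libraries, and its mean over stages was lower (log2 -0.54 ± 0.18, edgeR adjusted p = 0.036). That call was lost without stage I isotype 2, stage II isotype 2, stage III isotype 2, stage IV isotype 1, stage I anti-IL5 1 or 2, stage II anti-IL5 1 or 2, stage III anti-IL5 1 or 3, or stage IV anti-IL5 1 (highest edgeR adjusted p = 0.168). Nsdhl, a sterol dehydrogenase, and Tm7sf2, a sterol reductase, were lower at stage IV than I with both antibodies. The isotype values were log2 -0.66 ± 0.25, edgeR adjusted p = 0.0269 and log2 -1.56 ± 0.40, edgeR adjusted p = 0.0016. The Nsdhl one was lost without stage I isotype replicate 3 or stage IV isotype replicate 1 or 3 (highest edgeR adjusted p = 0.146).

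**Figure D4:**
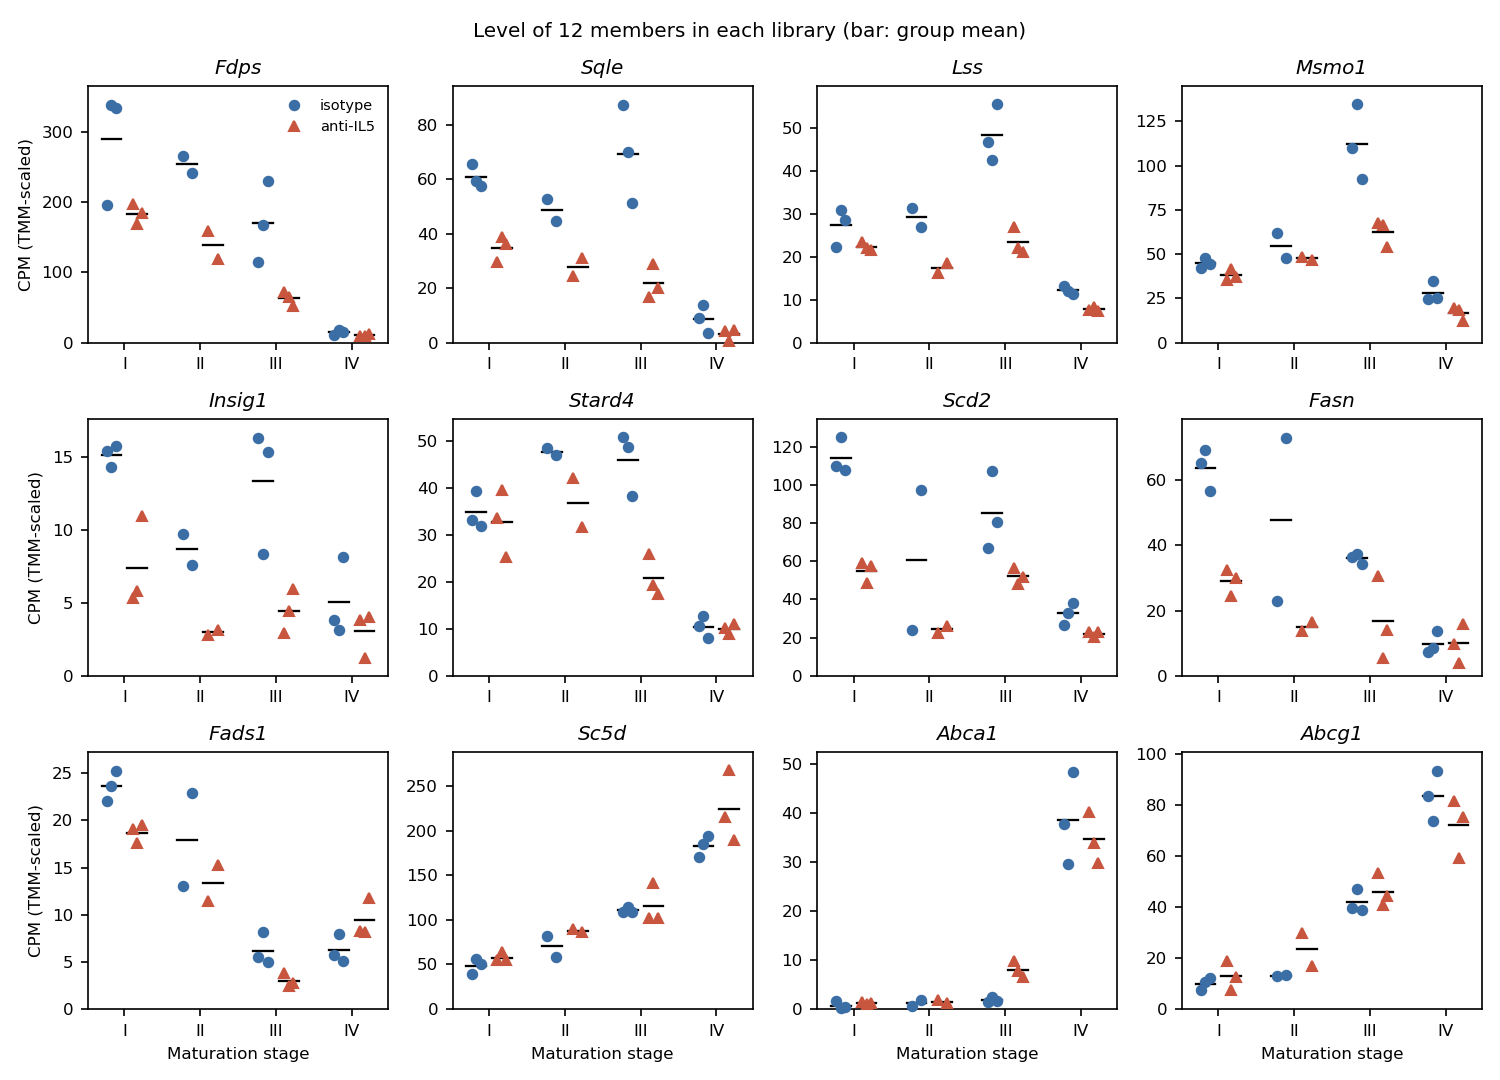
Level in CPM of 12 genes in each library by maturation stage, with blue circles for isotype, red triangles for anti-IL5 and a bar for each group mean; every vertical axis starts at 0. Anti-IL5 triangles of Fdps, Sqle, Lss, Msmo1, Insig1 and Stard4 lie below the isotype circles at stage III, and those of Abca1 lie above them.

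Of the 6 regulators and carriers, Insig1 and Stard4, which are themselves known SREBP targets, were lower under anti-IL5 at stage III. The transcription factors Srebf1 and Srebf2 were not. Insig1, which holds SCAP in the endoplasmic reticulum, had 15.4, 14.3 and 15.8 CPM with isotype and 5.33, 5.80 and 10.9 CPM with anti-IL5 at stage I. The pairs of groups were 9.72 and 7.58 CPM with isotype and 2.80 and 3.14 CPM with anti-IL5 at stage II, 16.3, 8.31 and 15.3 CPM with isotype and 2.94, 4.42 and 5.97 CPM with anti-IL5 at stage III, and 3.83, 3.11 and 8.15 CPM with isotype and 3.82, 1.25 and 4.04 CPM with anti-IL5 at stage IV. The antibodies overlapped at stage IV and at no earlier stage. The difference was log2 -1.57 ± 0.43, edgeR adjusted p = 0.0331 at stage III and log2 -1.22 ± 0.23, edgeR adjusted p = 0.000928 over the stages. The stage III call held only without isotype replicate 2 among the 6 fits that leave out 1 library, and was lost without any other (highest edgeR adjusted p = 0.114).

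Stard4, a soluble sterol carrier, had 50.9, 48.7 and 38.4 CPM in stage III isotype and 26.0, 19.3 and 17.4 CPM in stage III anti-IL5 libraries. The isotype levels were 33.1, 39.4 and 32.0 CPM at stage I, 48.5 and 47.0 at stage II and 10.7, 12.7 and 8.05 at stage IV. The anti-IL5 levels were 33.5, 39.6 and 25.3 CPM at stage I, 42.1 and 31.6 at stage II and 10.3, 8.98 and 11.0 at stage IV, so the antibodies were apart at stages II and III. The difference was log2 -1.14 ± 0.22, edgeR adjusted p = 0.00292 at stage III, against log2 -0.085 ± 0.21, edgeR adjusted p = 0.896 at stage I and log2 -0.060 ± 0.22, edgeR adjusted p = 1 at stage IV. The effect at stage III minus that at stage I was log2 -1.05 ± 0.30, edgeR adjusted p = 0.118. From stage II to III Stard4 fell with anti-IL5 (log2 -0.82 ± 0.24, edgeR adjusted p = 0.0086), a call lost without stage II anti-IL5 replicate 1 (edgeR adjusted p = 0.138), whereas with isotype the change was log2 -0.053 ± 0.24, edgeR adjusted p = 0.888.

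Srebf2, the SREBP that drives sterol genes, peaked at stage III with both antibodies. Isotype levels were 58.9, 79.6 and 45.8 CPM at stage I, 34.4 and 100.3 at stage II, 183, 314.5 and 196 at stage III and 88.3, 104 and 108 at stage IV. Anti-IL5 levels were 45.2, 55.0 and 52.7 CPM at stage I, 35.4 and 84.3 at stage II, 205, 196 and 211 at stage III and 73.2, 74.9 and 93.3 at stage IV. The stage II replicates of either antibody differed more than 2-fold, with replicate 1 the lower one. The rise from II to III was log2 1.78 ± 0.37, edgeR adjusted p = 0.000737 with isotype and log2 1.77 ± 0.37, edgeR adjusted p = 0.000641 with anti-IL5, and the fall to stage IV log2 -1.21 ± 0.31, edgeR adjusted p = 0.00481 and log2 -1.34 ± 0.31, edgeR adjusted p = 0.00317. At stage III the antibody difference was log2 -0.18 ± 0.31, edgeR adjusted p = 0.789, with overlapping libraries.

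Srebf1, whose protein acts mainly on fatty acid genes, passed none of the comparisons between stages, with means of 97.2, 95.3, 127 and 117 CPM from stage I to IV of isotype libraries. With anti-IL5 the means were 67.7, 72.0, 110.1 and 90.3 CPM. Each was below its isotype counterpart, the libraries overlapped except at stage IV, and the difference over stages was log2 -0.38 ± 0.12, edgeR adjusted p = 0.0292. That call was lost without replicate 2 of stage I, II or IV isotype, stage I anti-IL5 2 or 3, stage II anti-IL5 1 or 2, stage III anti-IL5 2 or stage IV anti-IL5 2 (highest edgeR adjusted p = 0.126).

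Scap, the SREBP escort, was lower under anti-IL5 at stage I, at 91.4, 64.1 and 52.1 CPM against 141, 154 and 119 CPM (log2 -0.996 ± 0.26, edgeR adjusted p = 0.0332). The call was lost without isotype replicate 1 or 2, without anti-IL5 replicate 2 or 3 (highest edgeR adjusted p = 0.146) and with no filter (edgeR adjusted p = 0.051). At stage III the groups overlapped, at 182, 169 and 144 CPM with isotype and 206, 163 and 220.3 CPM with anti-IL5 (log2 0.25 ± 0.26, edgeR adjusted p = 0.622). At stage II the means were 80.8 CPM with isotype and 57.8 CPM with anti-IL5. There the isotype libraries, at 45.6 and 116 CPM, lay on either side of the anti-IL5 ones, at 48.9 and 66.7 CPM. Scap rose to 338, 285 and 309.3 CPM with isotype and 257, 274 and 414 CPM with anti-IL5 at stage IV, a change from stage I of log2 1.17 ± 0.26, edgeR adjusted p = 0.000442 with isotype and log2 2.19 ± 0.27, edgeR adjusted p = 3.69e-07 with anti-IL5. Insig2, the second INSIG, rose from 18.7, 17.9 and 20.9 CPM at stage I to 42.4, 42.6 and 33.8 CPM at stage IV with isotype (log2 1.05 ± 0.22, edgeR adjusted p = 0.000215) and to 47.8, 34.3 and 51.0 CPM with anti-IL5 (log2 1.04 ± 0.22, edgeR adjusted p = 0.000273), and showed no called difference between the antibodies at any stage. Its means at stages I, II and III were 19.1, 29.9 and 35.3 CPM with isotype and 21.6, 26.2 and 40.2 CPM with anti-IL5.

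Of the fatty acid enzymes, the 2 that supply acetyl-CoA rose from stage I to IV with isotype, and the other 7 tested, which build, activate and desaturate chains, fell (backgrounds 33.9% lower and 32.3% higher). Acly, which makes cytosolic acetyl-CoA from citrate, went from 151, 178 and 138 CPM at stage I to 424, 614 and 493 CPM at stage IV with isotype (log2 1.71 ± 0.23, edgeR adjusted p = 1.29e-06) and from 104, 122 and 117 to 359.8, 393 and 441 CPM with anti-IL5 (log2 1.79 ± 0.23, edgeR adjusted p = 8.62e-07). Acss2, which makes it from acetate, was also higher at stage IV than I (log2 1.43 ± 0.25, edgeR adjusted p = 3.46e-05 with isotype), and had its highest isotype mean at stage III. It rose from 46.8 and 28.5 CPM at stage II to 106, 77.8 and 114 CPM at stage III (log2 1.40 ± 0.29, edgeR adjusted p = 0.000659). Exons of Acss2 overlap those of Gss, Ggt7 and Acss2os on the other strand, so reads there may belong to those genes. Neither Acly nor Acss2 passed between the antibodies at any stage.

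Fasn, the fatty acid synthase, had 65.2, 69.2 and 56.6 CPM at stage I and 7.32, 8.49 and 13.9 CPM at stage IV with isotype (log2 -2.69 ± 0.50, edgeR adjusted p = 9.04e-05). Under anti-IL5 it had 32.5, 24.6 and 29.9 CPM at stage I, 13.6 and 16.6 at stage II, 30.6, 5.38 and 14.1 at stage III and 9.90, 4.00 and 16.0 at stage IV. The isotype levels were 22.9 and 73.0 CPM at stage II and 36.5, 37.5 and 34.4 at stage III, above the anti-IL5 ones in every library although stage II isotype replicate 1 stood far below replicate 2. The difference over the stages was log2 -0.97 ± 0.26, edgeR adjusted p = 0.011, lost without stage II isotype replicate 2 (edgeR adjusted p = 0.0581). At single stages it was log2 -1.14 ± 0.47, edgeR adjusted p = 0.2 at stage I and log2 -1.12 ± 0.48, edgeR adjusted p = 0.178 at stage III.

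Scd2 (chr19:44293674-44306864), the stearoyl-CoA desaturase these cells did express, showed the same direction. Its levels were 109.7, 125 and 108 CPM with isotype and 58.9, 48.4 and 57.5 CPM with anti-IL5 at stage I (log2 -1.06 ± 0.30, edgeR adjusted p = 0.045). This call was lost without any 1 of the 6 libraries (highest edgeR adjusted p = 0.168), with plain library totals (edgeR adjusted p = 0.0598) and with no filter (0.0562). At stage II the levels were 23.8 and 97.1 CPM with isotype and 22.7 and 26.0 CPM with anti-IL5, at stage III 67.1, 108 and 80.6 CPM with isotype and 56.6, 47.9 and 51.7 CPM with anti-IL5, and at stage IV 26.9, 33.0 and 38.3 CPM with isotype and 22.9, 20.5 and 22.7 CPM with anti-IL5. All anti-IL5 libraries were below all isotype libraries at stages I, III and IV, while stage II isotype replicate 1 lay between the anti-IL5 libraries. Over the stages the difference was log2 -0.91 ± 0.16, edgeR adjusted p = 0.00037. Elovl6, which lengthens palmitate, was lower over the stages too (log2 -1.30 ± 0.36, edgeR adjusted p = 0.0137) at low levels, with means of 7.78 CPM with isotype and 3.43 CPM with anti-IL5 at stage I, 5.59 and 1.39 CPM at stage II, 2.68 and 0.615 CPM at stage III and 1.51 and 1.55 CPM at stage IV, where the libraries overlapped.

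The polyunsaturated fatty acid desaturases Fads1 and Fads2 were lower at stage IV than I with both antibodies, and much of the difference was present by stage III. Fads2, which makes the first double bond, had 13.4, 26.8 and 22.2 CPM at stage I, 5.20 and 15.3 at stage II, 0.509, 3.41 and 4.53 at stage III and 0 in all 3 stage IV libraries with isotype. Set against 3 counts over the group, stage IV was at least 35.3-fold lower than stage III and at least 237-fold lower than stage I. Anti-IL5 libraries had 5.45, 11.6 and 6.72 CPM at stage I, 2.42 and 5.24 at stage II, 0.392, 1.25 and 0 at stage III and 0, 0 and 0.449 at stage IV, with values below isotype in every library of stage I (log2 -1.38 ± 0.71, edgeR adjusted p = 0.308). Fads1 (chr19:10182888-10196877), which acts later in the same chain, had 22.1, 23.6 and 25.3 CPM at stage I and 5.47, 8.13 and 4.96 CPM at stage III with isotype. At stage III anti-IL5 libraries had 3.83, 2.50 and 2.76 CPM (log2 -1.04 ± 0.30, edgeR adjusted p = 0.0416), and at stage IV the order was the other way, with 5.70, 7.96 and 5.15 CPM in isotype and 8.23, 8.19 and 11.8 CPM in anti-IL5 libraries (log2 0.58 ± 0.28, edgeR adjusted p = 0.546). The stage III call held without anti-IL5 replicate 1 and was lost without any other library (highest edgeR adjusted p = 0.152) and with no filter (0.0656). Fads1 rose from stage III to IV with anti-IL5 (log2 1.63 ± 0.30, edgeR adjusted p = 0.000296). Acaca, acetyl-CoA carboxylase, and Acsl3, an acyl-CoA ligase, were lower at stage IV than I with both antibodies. Acaca went from 9.69, 15.4 and 16.3 CPM to 3.06, 2.73 and 4.59 CPM with isotype (edgeR adjusted p = 0.000474). The Acsl3 value with isotype was log2 -1.14 ± 0.42, edgeR adjusted p = 0.021, lost without stage I isotype replicate 3 or stage IV isotype replicate 1 or 3 (highest edgeR adjusted p = 0.0555). Neither passed between the antibodies at any stage.

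Abca1, Abcg1, Mylip and Nr1h2 rose from stage I to IV with both antibodies, and 21 of the 27 tested synthesis enzymes fell with each antibody (backgrounds with isotype 32.3% higher and 33.9% lower, with anti-IL5 30.7% higher and 32.8% lower). Abca1, the transporter that loads cholesterol onto apolipoproteins, had 1.55, 0.208 and 0.377 CPM at stage I, 0.684 and 1.92 at stage II, 1.53, 2.36 and 1.62 at stage III and 37.8, 29.6 and 48.3 at stage IV with isotype. Anti-IL5 libraries had 1.54, 0.952 and 1.17 CPM at stage I, 1.78 and 1.26 at stage II, 9.81, 7.69 and 6.50 at stage III and 40.1, 33.9 and 29.8 at stage IV. All stage III anti-IL5 libraries were above all stage III isotype libraries, which overlapped those of stage II, and at stage IV the antibodies overlapped. The step from II to III was log2 2.40 ± 0.51, edgeR adjusted p = 0.000707 with anti-IL5 and log2 0.47 ± 0.54, edgeR adjusted p = 0.528 with isotype, and the step from III to IV log2 2.11 ± 0.38, edgeR adjusted p = 0.000271 and log2 4.37 ± 0.44, edgeR adjusted p = 8.58e-08. At stage III the antibody difference was log2 2.10 ± 0.42, edgeR adjusted p = 0.00411. The effect at stage III minus that at stage IV was log2 2.26 ± 0.55, edgeR adjusted p = 0.064. Over the stages the difference was log2 0.69 ± 0.24, edgeR adjusted p = 0.0494, which failed with plain library totals (edgeR adjusted p = 0.0781) and without 17 of the 22 libraries in turn, passing only without stage II isotype replicate 2, stage III isotype 2, stage IV isotype 3, stage I isotype 1 or stage III anti-IL5 3 (highest edgeR adjusted p = 0.123).

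Abcg1, which exports cholesterol to lipoprotein particles, rose from 7.39, 10.6 and 11.98 CPM at stage I to 12.9 and 13.2 at stage II, 39.5, 47.0 and 38.9 at stage III and 83.4, 73.6 and 93.3 CPM at stage IV with isotype. The anti-IL5 levels were 18.8, 7.52 and 12.4 CPM at stage I, 29.9 and 17.0 at stage II, 53.2, 40.6 and 44.3 at stage III and 81.6, 59.0 and 75.1 at stage IV. The change from stage I to IV was log2 3.06 ± 0.28, edgeR adjusted p = 3.50e-09 with isotype and log2 2.48 ± 0.27, edgeR adjusted p = 7.52e-08 with anti-IL5. The antibodies were apart at stage II alone, where the difference was log2 0.84 ± 0.33, edgeR adjusted p = 0.246. Mylip rose from 21.0, 23.7 and 31.04 CPM at stage I to 91.5, 92.5 and 80.7 CPM at stage IV with isotype (log2 1.81 ± 0.20, edgeR adjusted p = 4.59e-08). Its levels under anti-IL5 were 40.6, 28.7 and 25.7 CPM at stage I, 54.1 and 57.1 at stage II, 88.8, 106 and 101 at stage III and 93.0, 91.3 and 76.8 at stage IV, against 36.4 and 34.6 CPM at stage II and 65.9, 105 and 74.5 CPM at stage III with isotype. Over the stages it was higher under anti-IL5 (log2 0.30 ± 0.10, edgeR adjusted p = 0.037). That call was lost with plain library totals (edgeR adjusted p = 0.0521) and without 12 of the 22 libraries in turn: stage I isotype 2, stage II isotype 2, stage III isotype 1 or 3, stage IV isotype 3, stage I anti-IL5 1, stage II anti-IL5 1 or 2, stage III anti-IL5 2 or 3, and stage IV anti-IL5 1 or 2 (highest edgeR adjusted p = 0.0764).

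Of the LXRs themselves, Nr1h2 (LXR beta) rose from a mean of 110.2 ± 13.5 CPM (SD, n = 3) at stage I to 222 ± 5.88 CPM at stage IV with isotype (log2 1.01 ± 0.15, edgeR adjusted p = 6.86e-06), through 137 CPM at stage II and 178 CPM at stage III. With anti-IL5 its means were 128, 184, 203 and 225 CPM. Nr1h3 (LXR alpha) stayed between 0.628 and 3.60 CPM in the 22 libraries, and passed none of the 15 comparisons. Its means from stage I to IV were 1.70, 2.67, 1.67 and 2.03 CPM with isotype and 0.995, 1.59, 2.03 and 2.604 CPM with anti-IL5.

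Setting synthesis against export, the counts of the 28 synthesis enzymes and of Abca1, Abcg1 and Mylip were summed per library. These sums are CPM, not corrected for gene length, so their ratio is followed across groups and has no meaning as an absolute balance. The export sum includes Mylip, which is a ubiquitin ligase and not itself an exporter. With isotype Mylip had a mean of 25.3 of 36.0 CPM at stage I and 88.3 of 210 CPM at stage IV. Under anti-IL5 it had 98.6 of 153 CPM at stage III. With isotype the synthesis sum was 1148, 1482 and 1370 CPM at stage I, 1191 and 1281 at stage II, 1584, 1828 and 1494 at stage III and 994, 1230 and 1097 at stage IV. The export sum was 29.9, 34.6 and 43.4 CPM at stage I, 50.0 and 49.8 at stage II, 107, 154 and 115 at stage III and 213, 196 and 222 at stage IV. Mean synthesis was lowest at stage IV, and mean export was higher at each later stage. Which stage had the highest mean synthesis depended on the scaling: it was stage III with TMM and stage I with plain library totals (1573 ± 152 against 1546 ± 109.5 CPM, SD, n = 3).

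Under anti-IL5 the synthesis sum was 979.7, 964 and 957 CPM at stage I, 1020 and 922 at stage II, 1133, 1280 and 1119 at stage III and 941, 980 and 989 at stage IV. The export sum was 61.0, 37.2 and 39.2 CPM at stage I, 85.8 and 75.3 at stage II, 152, 154 and 152 at stage III and 215, 184 and 182 at stage IV. Export as a percentage of synthesis was 2.70 ± 0.426 with isotype and 4.73 ± 1.30 with anti-IL5 at stage I (SD, n = 3). At stage II it was 4.04 ± 0.219 and 8.29 ± 0.177 (n = 2), at stage III 7.62 ± 0.841 and 13.01 ± 0.822, and at stage IV 19.2 ± 2.90 and 19.99 ± 2.46. The anti-IL5 percentages were above the isotype ones in every library at stages I, II and III and overlapped at stage IV. These are descriptions without a test, since a score over chosen members is not tested here. Acly and Sc5d weigh on the sums: without Sc5d, the sterol enzymes summed to 832, 972 and 903 CPM in stage III isotype and 539, 522 and 458 CPM in stage III anti-IL5 libraries, and to 257, 321 and 269.8 CPM with isotype and 245, 220.5 and 234 CPM with anti-IL5 at stage IV. Without Acly, the fatty acid enzymes summed to 275, 306.3 and 273 CPM with isotype and 170.2, 152 and 170.1 CPM with anti-IL5 at stage I, and to 229, 254 and 261 CPM with isotype and 175, 143 and 149 CPM with anti-IL5 at stage III. At stage II these sums were 133 and 274 CPM with isotype and 120.5 and 117 CPM with anti-IL5, and at stage IV 143, 110.5 and 139 and 120.1, 98.8 and 125 CPM, where the antibodies overlapped.

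**Figure D5:**
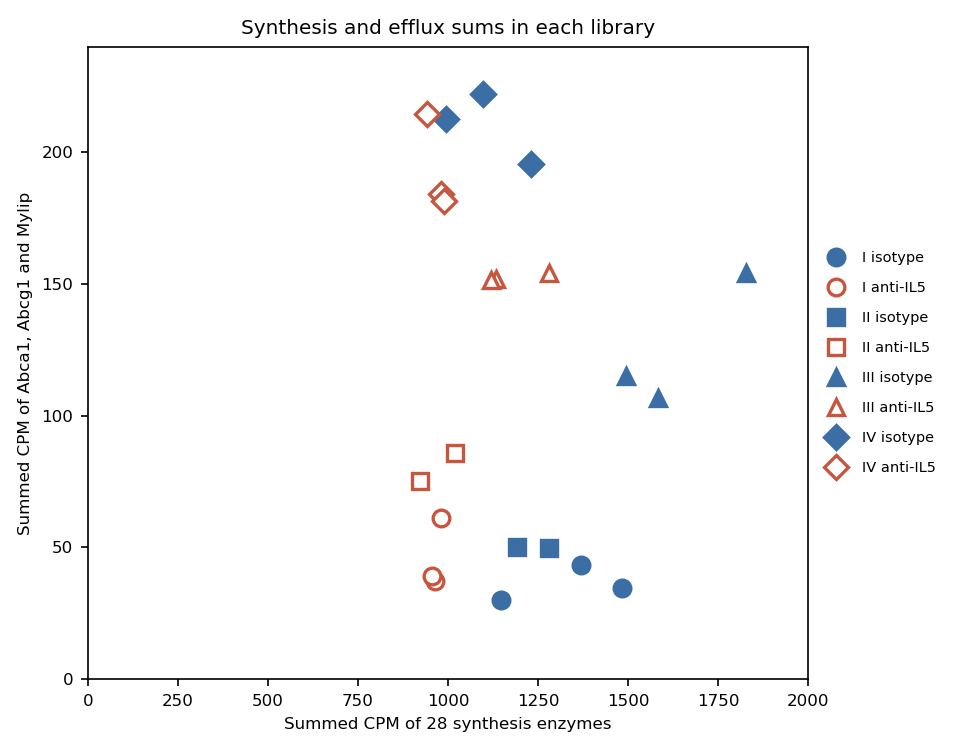
Summed CPM of the 28 synthesis enzymes (horizontal) against summed CPM of Abca1, Abcg1 and Mylip (vertical) in each of the 22 libraries; shapes mark stages, filled blue symbols isotype and open red symbols anti-IL5. At each stage the isotype libraries lie to the right of the anti-IL5 libraries, and the stage IV libraries lie highest.

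Other genes of the same pathways were counted from lists, with no test over a list. At stage III, 0 of 12 isoprenoid branch genes and 0 of 13 SREBP processing genes passed between the antibodies by edgeR or DESeq2, with 3 isoprenoid branch genes lower and 2 SREBP processing genes higher at an unadjusted p under 0.05. The backgrounds were 5.05% lower and 1.32% higher. Of 12 genes of sterol traffic and storage 3 were lower and 0 higher, of 21 tested genes of other fatty acid and glycerolipid synthesis 2 were lower and 0 higher, and of 8 tested LXR partners and targets 0 were lower and 1 higher. Tmem97, a sterol-binding membrane protein, was lower (11.2 ± 1.90 against 26.1 ± 8.95 CPM, log2 -1.22 ± 0.26, edgeR adjusted p = 0.00607), as was Scarb1, a lipoprotein receptor (34.9 ± 4.28 against 61.4 ± 10.3 CPM, log2 -0.81 ± 0.21, edgeR adjusted p = 0.0201). So were Hsd17b12 and Hacd3, which lengthen fatty acids (log2 -0.86 ± 0.21, edgeR adjusted p = 0.0167 and log2 -0.95 ± 0.23, edgeR adjusted p = 0.0174). Ncoa1, a nuclear receptor coactivator, was higher (log2 0.77 ± 0.19, edgeR adjusted p = 0.0157). Vldlr, a lipoprotein receptor, was called lower as well, from 0.382 to 13.6 CPM in isotype and from 0 to 0.288 CPM in anti-IL5 libraries, too few reads for a fold change. Of these, Tmem97 and Vldlr were lost without isotype replicate 3, Scarb1 without isotype replicate 3 or anti-IL5 replicate 2 or 3, and Ncoa1 without isotype replicate 1 or 3 or anti-IL5 replicate 3. Hsd17b12 was lost without anti-IL5 replicate 2 or 3, and Hacd3 and Vldlr without anti-IL5 replicate 3. Tmem97 was lower at stage I too (92.3 ± 11.1 against 177 ± 42.8 CPM), a call that held only without isotype replicate 1 among the fits that leave out 1 library.

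Over maturation the genes of these lists were counted in the same way. From stage I to IV with isotype, 7 of the 8 tested LXR partners and targets rose and 0 fell, among them Lpcat3, which remodels phospholipids, and the LXR partner Rxra. Of the 13 SREBP processing genes 8 rose and 1 fell, of the 12 sterol traffic and storage genes 7 rose and 2 fell, and of the 12 isoprenoid branch genes 2 rose and 6 fell. Of the 21 tested genes of other fatty acid and glycerolipid synthesis 3 rose and 8 fell. Each count is read against backgrounds of 32.3% higher and 33.9% lower, and the share of falls in the last list was near its background. The lists are short, and differences between them were not tested. Under anti-IL5, in the same order of lists, 7 rose and 0 fell, 8 rose and 1 fell, 7 rose and 2 fell, 2 rose and 4 fell, and 5 rose and 11 fell. The backgrounds there were 30.7% higher and 32.8% lower.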

How the data were processed

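Eosinophil stages were gated on surface proteins (Siglec-F, CD55, CD29, F4/80, CD117 and others) after other lineages were depleted, at a stated purity of at least 95%, per the labels' protocols. RNA was amplified with SMART-Seq v4 (17 cycles) and made into Nextera XT libraries, which do not mark strand, and no molecular identifiers are named. The authors deposited whole-number read counts per gene, 1 file a library, per the values in the files. The submitters' processing notes name STAR 2.6.1a, mm10 and DESeq2 without giving their roles; which program counted the reads, on which gene models and whether by strand, is not stated there. The 2 lines of each file that name no gene held 12.7 to 22.1% (no feature) and 1.86 to 2.39% (ambiguous) and were left out.

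Groups came from the labels. Counts were fitted in edgeR 4.0.16 (R 4.3.3; TMM, filterByExpr over the 8 groups, robust quasi-likelihood F test, all 22 libraries), with Benjamini-Hochberg adjustment over 12387 genes and a threshold of 0.05. No library pair held identical values. The fit was tested on simulated data. The members and all gene lists were chosen with earlier results of these data known. Every member is accounted for by role; values are given for each member called between antibodies, for the regulators and the LXR and export genes in every group, and for at most 8 rises and 8 falls a step at 10 CPM or more. Alternatives were DESeq2 1.42.0, median-of-ratios scaling in edgeR, no filter, a replicate block, each library left out in turn and, chosen after seeing the data, plain library totals. Gene positions are from GENCODE M21 on GRCm38 (mm10). Intervals and floors cover counting error only.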

Additional observations from a re-analysis of the deposited data

Results flagged for a closer look

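Fads1, a desaturase of polyunsaturated fatty acids, was flagged because its libraries separated by antibody in opposite directions at different stages. Anti-IL5 libraries were all below isotype libraries at stage I (log2 -0.34) and stage III (log2 -1.04), and all above them at stage IV (log2 0.58). The difference between the stage III and stage IV effects did not pass by edgeR (log2 -1.62 ± 0.41, edgeR adjusted p = 0.0814) and passed by DESeq2 (adjusted p = 0.013). That between stages III and I did not pass (log2 -0.70 ± 0.40, edgeR adjusted p = 0.64). The difference between stages I and IV was not tested.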

How the results depend on the processing

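Of 172 called values of a member in a comparison, none changed direction under any alternative that was run. With DESeq2 1 of them no longer passed, with median-of-ratios scaling 2, with no filter 6, with plain library totals 10, and in fits without 1 library 154 of 1257 (172 values, each tried without every library of its groups). Counts of lower members moved by over 1.5 times at stage I (2 called) to 1 with plain library totals and 0 with no filter; at stage II (0 called) to 2 with DESeq2; and at stage IV (1 called) to 2 with DESeq2 and 2 with plain totals. The count of higher members over the stages (2) became 0 with plain totals. From I to II with isotype (0 lower) DESeq2 gave 3, and median-of-ratios scaling, plain totals and no filter gave 1 each. From II to III with isotype (2 lower) plain totals gave 4, and from I to II under anti-IL5 (3 higher) plain totals gave 1. For the effect at stage III minus that at stage I, DESeq2 gave 1 lower and 1 higher. For stage III minus stage IV, DESeq2 gave 3 lower and 1 higher and no filter gave 1 higher. The cause of these shifts was not tested. Plain totals moved the median of all genes by log2 -0.417 and -0.418 from stage I to IV, by -0.185 and -0.198 from II to III and by -0.121 and -0.159 from I to II (isotype and anti-IL5), and by -0.071 between antibodies at stage III; TMM values are relative to that median.

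Without 1 library at a time, the lower members numbered 0 to 1 at stage I, 0 to 1 at stage II, 3 to 9 at stage III, 0 to 1 at stage IV and 11 to 15 over the stages, and the higher members over the stages 0 to 3. With isotype the steps gave 0 to 3 lower and 0 to 2 higher from I to II, and 1 to 3 lower from II to III. Under anti-IL5 the step from I to II gave 0 to 1 lower and 0 to 4 higher. Where a stage II group is left with 1 library, that library is assumed to vary like the other groups. Groups of 2 or 3 libraries of 7161264 to 14781250 counts limit which differences can be called.

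With the replicate number as a replicate block, 5 of the 172 calls no longer passed, namely Abca1 over the stages (log2 0.68, edgeR adjusted p = 0.0509), Mvd from II to III with isotype (edgeR adjusted p = 0.0548), and under anti-IL5 Sc5d (0.0532) and Nr1h2 (0.0506) from I to II and Insig2 (0.0552) from II to III. The block gave 2 lower members at stage IV, 1 higher member over the stages, 2 lower and 1 higher from I to II and 4 lower from II to III with isotype. The labels give only a number, and whether it marks a shared animal, day or batch is not stated. Of same-numbered pairs, 16 of 30 within an antibody correlated above 0.1 (lowest 0.0229), and 2 of 11 across antibodies at the same stage (lowest 0.0127). The medians were 0.113 and 0.0531 for these pairs, against -0.0489 and -0.0323 for pairs with different numbers.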
